A study of Macaca fascicularis with 132 samples.

Results

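The earliest response to heterodimeric interleukin-15 (IL-15) was examined in mononuclear blood cells of Macaca fascicularis, the cynomolgus macaque, after 2 h of culture outside the body. The libraries labelled as IL-15 at 2 h and as control at 2 h were taken, 24 in all and 12 on each side. They make up 8 of the 44 combinations of animal and group in the series, each of 3 libraries. Cultures with IL-15 held IL-15/IL-15Ra at 40 ng/ml, and control cultures held 0 ng/ml. Both kinds of culture came from the same 4 animals, the females 38142 and 38155 and the males 38147 and 38157, with 3 numbered libraries for each animal and treatment. The series also holds control cells at 0 h and both treatments at 6, 12, 24 and 48 h. The ages of the animals are not given in the labels, and the design text speaks of 6 animals, of which 4 are analysed here.

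Interleukin-15 is a cytokine of T cells and natural killer cells. It is normally presented by its own receptor alpha chain, to which it is bound in the heterodimer, and it signals through a beta chain shared with interleukin-2 and the common gamma chain. These chains activate the kinases JAK1 and JAK3 and the transcription factor STAT5, and the direct targets of STAT5 are known to respond within hours. Mononuclear cells of the blood also hold B cells and monocytes. In such bulk RNA, a change in RNA per cell and a change in the number of cells of a type cannot be told apart. No symbols stand beside the gene IDs of either count table, and 0 IDs matched the reference table used here. Pathway lists and cell type markers could therefore not be run, the labelled cell types could not be checked against markers, and genes are described in groups, with 4 IDs given in full.

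Control libraries at 2 h held 16423972 to 33509010 counts and IL-15 libraries 18340022 to 38195991. Genes with at least 1 count numbered 16035 to 18723 and 16964 to 19328. The counts of the 3 libraries of an animal and treatment were summed, which gave 61862555 to 83275626 counts for control and 69853074 to 98240904 for IL-15. Nothing in the labels says whether the 3 libraries are separate cultures, so the animal was the unit of replication (n = 4). One library stood apart: control library 3 of animal 38157 lay 0.487 (root mean square log2 difference over 10095 genes) from its nearest sister, while its 2 sisters lay 0.211 from each other. It had the most counts (33509010) and the fewest genes with a count (16035) of the control libraries, and results are given with and without it below.

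Of 18197 genes tested, 303 were higher and 90 lower with IL-15 at 2 h, 1.67% and 0.495% of the genes (edgeR quasi-likelihood test, adjusted p under 0.05, n = 4 animals). Together these are 2.16% of the genes, and those that rose made up 77.1% of the 393 called. At an unadjusted p under 0.05, 1195 genes were higher (6.57%) and 841 lower (4.62%). Most rises were small. The median log2 fold change was 0.48, with quartiles of 0.37 and 0.78, and that of the genes that fell was -0.45, with quartiles of -0.58 and -0.36. Over all genes tested the median was -0.02. A rise of at least 1 on the log2 scale was found for 50 genes (0.275% of those tested) and a fall of that size for 5 (0.0275%). At the other end, 158 genes rose by under 0.50 on the log2 scale.

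**Figure D1:**
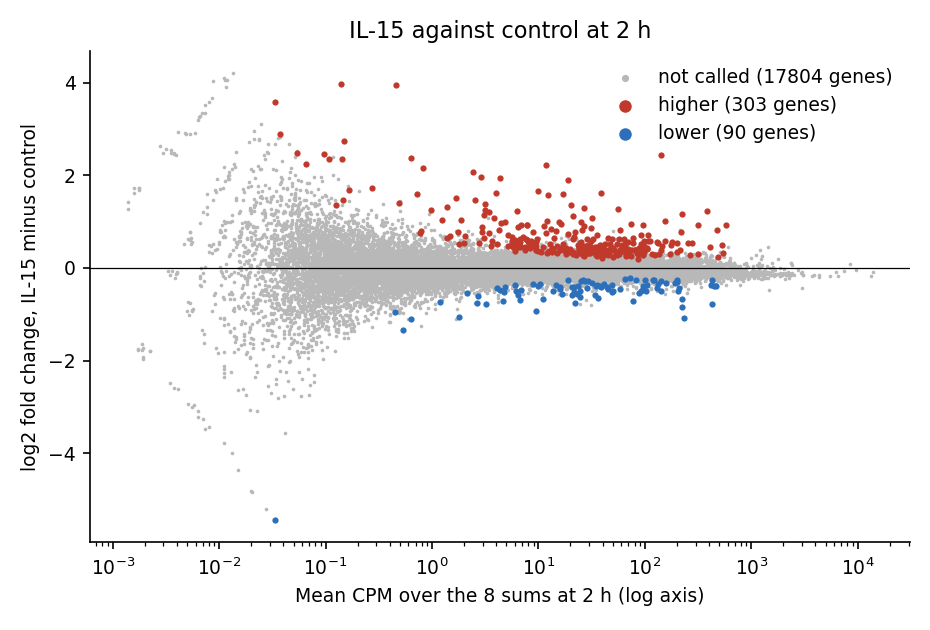
Log2 fold change of IL-15 against control (vertical axis) for each of 18197 genes against its mean level in CPM, the count scaled to the TMM-adjusted library total, over the 8 sums at 2 h (horizontal log axis). Red points are the 303 genes called higher and blue points the 90 called lower; most of the widest changes among the called genes lie at low levels.

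Large folds belonged mainly to scarce transcripts. Among the 50 genes that rose by at least 1, 30 had a mean below 5 CPM (counts scaled to the TMM-adjusted library total) in the IL-15 cultures, and among the 15 that rose by at least 2, 13 did. The 46 genes called higher from below 5 CPM rose by a median of 1.33, and the 257 from above it by a median of 0.45. The standard error was smaller at higher levels. The median standard error of the log2 fold change was 0.51 for the 5903 genes below 1 CPM, 0.13 for those of 5 to 20 CPM and 0.10 for those of 20 to 100 CPM. Of these level classes, genes of 20 to 100 CPM were called most often, with 3.35% higher and 0.843% lower. Below 1 CPM the shares were 0.356% and 0.0678%, and above 100 CPM they were 1.40% and 0.921%.

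The genes called higher took up a small part of the RNA. In control cultures at 2 h they held 1.21%, 1.00%, 1.17% and 1.08% of the counts of animals 38142, 38147, 38155 and 38157, and with IL-15 they held 1.89%, 1.43%, 1.70% and 1.70%. Between 17 and 27 genes made up 50% of that gain in each animal. The genes called lower went from 0.658%, 0.622%, 0.807% and 0.685% of the counts to 0.493%, 0.464%, 0.605% and 0.531%. These shares describe genes chosen by the same comparison and do not test it.

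ENSMFAG00000001455 had the largest rise among called genes whose IL-15 mean was 5 CPM or more. Control cultures at 2 h held 56.7, 55.9, 31.8 and 32.6 CPM in animals 38142, 38147, 38155 and 38157, and IL-15 cultures held 244, 212, 260 and 247 CPM. The lowest of 12 IL-15 libraries stood at 190 CPM and the highest of 12 control libraries at 64.2 CPM, so the groups did not overlap in any library. The log2 fold change was 2.44 ± 0.29 (SE; edgeR adjusted p = 2e-06). The animals with the lower control levels, 38155 and 38157, had the larger changes, 3.03 and 2.92 against 2.11 and 1.92. Each change is measured from that control level, so no relation is read between them. Before culture the level was 24.3 ± 15.2 CPM (SD, n = 4 animals), below both groups at 2 h in each animal.

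ENSMFAG00000031234 was a scarcer transcript with a rise of like size. It stood at 6.23, 4.26, 3.75 and 2.52 CPM in the control cultures and at 21.8, 17.1, 22.8 and 16.1 CPM with IL-15, in the same order of animals. Single libraries ranged from 1.24 to 6.82 CPM in control and from 14.1 to 26.5 CPM with IL-15, again without overlap. The log2 fold change was 2.23 ± 0.25 (SE; edgeR adjusted p = 2.5e-07). Cells before culture held 4.44 ± 0.43 CPM (SD, n = 4 animals), a level close to that of the control cultures at 2 h, 4.19 ± 1.54 CPM.

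ENSMFAG00000036654 had the largest fall among called genes whose control mean was 5 CPM or more. Control cultures at 2 h held 294, 288, 377 and 300 CPM, and cultures with IL-15 held 154, 140, 159 and 141 CPM. The 12 control libraries, at 239 to 434 CPM, all lay above the 12 IL-15 libraries, at 126.9 to 170 CPM. Its level before culture was 68 ± 26 CPM (SD, n = 4 animals), so that cultures with IL-15 stood between the 0 h cells and the control cultures in each animal. The log2 fold change was -1.09 ± 0.28 (SE; edgeR adjusted p = 0.032). This call was lost in 9 of 26 alternatives, with adjusted p up to 0.371 and no change of sign. Among them were the fits without animal 38142, 38147, 38155 or 38157 in turn (edgeR adjusted p = 0.153, 0.0811, 0.155 and 0.145), without library number 3 (0.0997) and without the library that stood apart (0.0569).

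ENSMFAG00000064157 differed more between animals than between treatments. Control levels were 4.87, 6.75, 8.68 and 28.7 CPM and IL-15 levels 2.19, 3.34, 5.22 and 15.9 CPM in animals 38142, 38147, 38155 and 38157. The groups overlapped, since animal 38157 held more with IL-15 than the other 3 without it. Within each animal the level was lower with IL-15, by 1.15, 1.01, 0.73 and 0.86 on the log2 scale. The paired log2 fold change was -0.92 ± 0.14 (SE; edgeR adjusted p = 4.4e-05), and without the animal term it was -0.88 with an adjusted p of 1. These 4 IDs are the extremes among called genes of at least 5 CPM in the higher group and 1 direction in 4 of 4 animals. Their sizes describe the ends of that set. Over all called genes the largest rise was 3.97 and the largest fall -5.45 on the log2 scale.

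**Figure D2:**
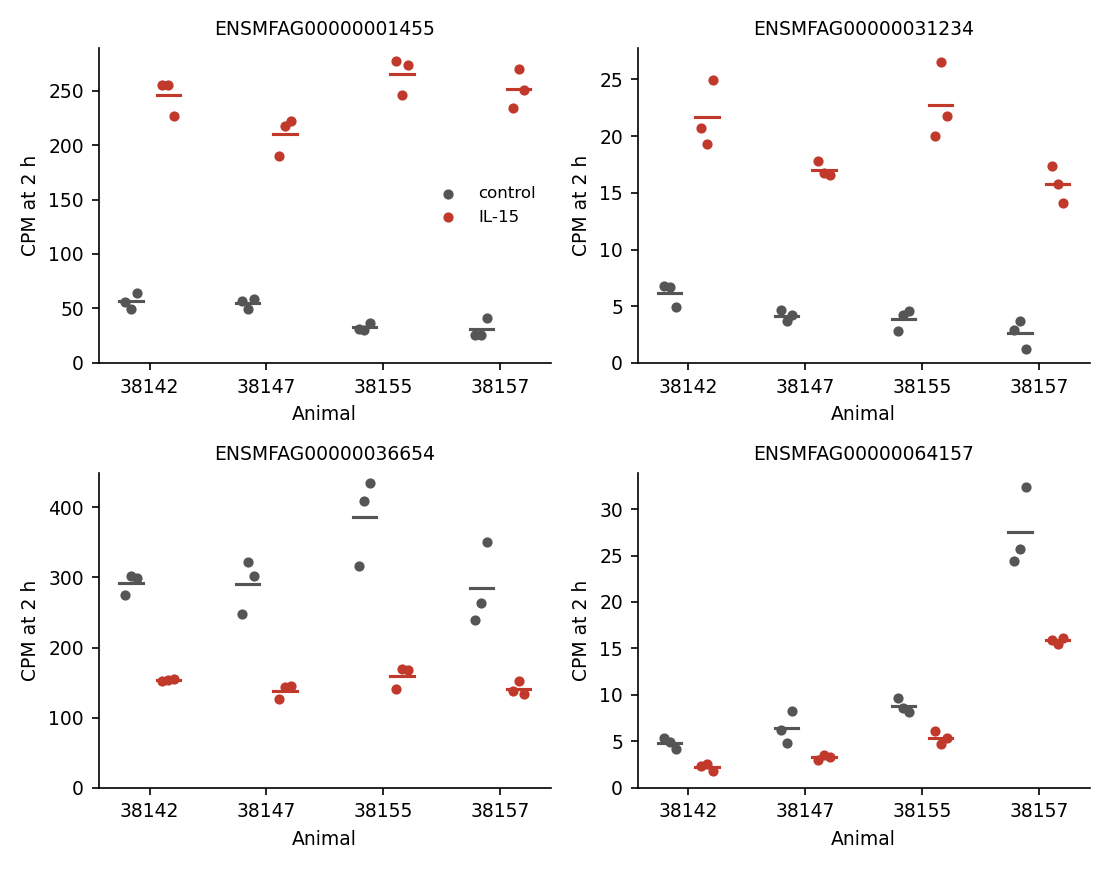
Level in CPM at 2 h (vertical axes from 0) of the 4 IDs in each library, by animal (horizontal axes); grey points are control and red points IL-15 libraries, and bars are means of 3 libraries. The upper pair is higher with IL-15 in each animal without overlap, and ENSMFAG00000064157 shows the gap within animals beside a far higher level in animal 38157.

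The next ranks were taken among called genes of at least 5 CPM in the higher group and 1 direction in 4 of 4 animals. In that set the next 8 genes rose by 1.36 to 1.95 on the log2 scale. They went from control levels of 1.81 to 19.5 CPM to IL-15 levels of 5.98 to 58.8 CPM. All 8 were also called higher at 6 h (5.12% of all genes tested), and 7 were at 48 h (20.2%). The 4 next largest falls in that set were of -0.84 to -0.72, at control levels of 5.85 to 541 CPM. Of these 3 were also called lower at 6 h (3.54% of all genes tested) and 0 at 48 h (20%). At 48 h the log2 fold changes of the 4 genes were -0.49 to 0.30, and they did not pass in either direction (edgeR, adjusted p under 0.05).

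The 4 animals changed in the same direction. The sign was the same in 4 of 4 animals for 302 of the 303 genes called higher and for 87 of the 90 called lower, against 29.5% of all genes tested. The test selects for such agreement, so the calls were repeated with 3 animals and read in the one left out. All but 2 of the genes called higher without animal 38142 were higher in that animal (98.04%), by a median of 0.66. For animals 38147 and 38155 the numbers were 133 of 136 and 176 of 181, with medians of 0.51 and 0.43. For animal 38157 all but 1 were higher (99.1%), with a median of 0.70. Between 44.9% and 49.5% of all genes were higher in these left-out animals. Genes called lower in 3 animals were lower in the one left out for 16 of 18, 31 of 32, 28 of 32 and 25 of 25 genes. Their medians there were -0.51, -0.46, -0.43 and -0.48, and between 50.52% and 53.25% of all genes were lower in these animals. The fitted medians of the genes called higher, in the 3 animals that chose them, were 0.80, 0.62, 0.60 and 0.74. The medians in the 4 left-out animals were smaller, but the measures are unlike. Values of a left-out animal are differences of log2 CPM with a prior count of 2, which pulls those of genes with few counts toward 0. Choice of the genes in the other 3 animals also favours a smaller value in the one left out. What each of these contributes was not tested. With its counts scaled by themselves, animal 38157 had a median of 0.74.

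**Figure D3:**
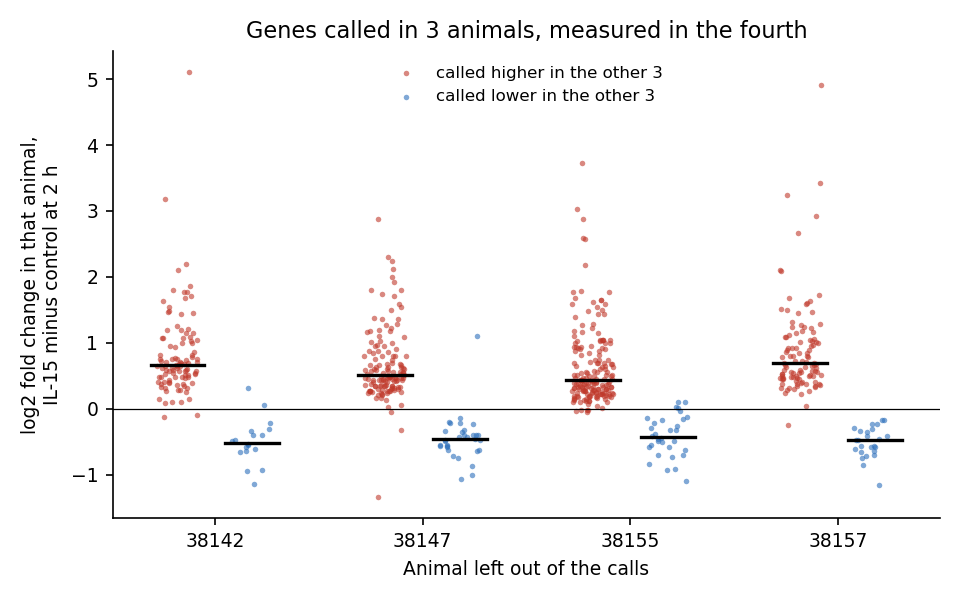
Log2 fold change of IL-15 against control at 2 h (vertical axis) in the animal left out (horizontal axis), for genes called higher (red) or lower (blue) in the other 3 animals; each point is a gene and black bars are medians. Red medians lie between 0.43 and 0.70 and blue medians between -0.51 and -0.43.

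Single libraries gave a further view of the spread. In 4 of 4 animals all 3 IL-15 libraries lay above all 3 control libraries for 136 of the 303 genes called higher (1.21% of all genes tested), and below them for 45 of the 90 called lower (0.923%). Over all animals at once, the 12 IL-15 libraries lay above the 12 control libraries for 36 of the 303 (0.220%) and below them for 7 of the 90 (0.0495%). Among the sums, the 4 with IL-15 lay above the 4 controls for 140 of the 303 genes (1.56%), and below them for 31 of the 90 (1.02%). Within single animals the libraries lay apart in this way for 88.8% of the 303 genes in animal 38142, 81.9% in 38147, 68% in 38155 and 62.7% in 38157, where the library that stood apart lies. Over all genes tested the shares were 9.84%, 8.69%, 9.66% and 6.14%, also lowest in 38157. For the 90 genes they were 85.6%, 87.8%, 83.3% and 68.9%, against 11.4%, 8.78%, 10.04% and 5.86% of all genes.

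On the called genes that library differed from its sisters. Among genes whose mean reached 5 CPM, it was lower than its 2 sister controls by a median of 0.41 on the log2 scale over those called higher and higher by 0.14 over those called lower. Without it, 248 genes were called higher and 66 lower, among them 227 of the 303 and 61 of the 90. For the effect in animal 38157 with and without it, the control and IL-15 counts of that animal were scaled by themselves, so the values differ from those of the scaling over all 44 sums. On this scale the median log2 fold change of the 303 genes was 0.56 with all 3 control libraries and 0.41 without that one, where the scaling over 44 sums gave 0.52 with all 3. Genes called higher in the other 3 animals had a median in animal 38157 of 0.74 with that library and 0.73 without it, where the scaling over 44 sums gave 0.70 with all 3, and all but 1 of them were higher either way.

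The number of calls rested on each animal. Set against the same 18197 genes, 0.561% were called higher without 38142, 0.747% without 38147, 0.995% without 38155 and 0.588% without 38157, where 1.67% were with all 4. Called lower were 18, 32, 32 and 25 genes. With library number 3 left out of every sum, 120 genes were higher and 27 lower. Fitted alone, the 8 sums at 2 h gave 960 higher and 836 lower, 53.5% higher among the calls. They held 292 of the 303 genes and 87 of the 90. No called gene changed sign in any of the 26 alternatives on this table. The share of rises among the calls ran from 47.8%, with libraries entered singly and a term for the column-name token, to 91.8%, without the animal term.

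Tokens in the column names (Lib1 or Lib2 with GL66, GL67, GL75 or merged), which the labels do not explain, were not spread evenly over the treatments at 2 h. In animal 38155 the 3 control libraries carry Lib1 GL66 or Lib1 GL67, and the 3 IL-15 libraries carry Lib1 GL75 or Lib2 GL75, so token and treatment cannot be told apart in that animal. Within Lib1 GL75, 3 animals have libraries of both treatments. Genes were therefore called without the Lib1 GL75 libraries, which gave 160 higher and 60 lower, and read within that token and animal. The 160 genes were higher for 96.9% of them in animal 38142, 97.5% in 38147 and 88.1% in 38157, against 50.2% to 51.9% of all genes. The 60 genes were lower for 85%, 96.7% and 61.7% of them, against 45% to 49.9%. The lone control library of animal 38157 in this set is the one that stood apart. Within Lib1 GL67 in animal 38157, 87.9% of 240 genes called without that token were higher and 96.2% of 53 were lower, against 44.8% and 55.2% of all genes. In all these readings, other libraries of the same animals took part in the calls. Whether they are separate cultures is not in the labels, so the readings may not be independent of the calls.

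Levels before culture stand beside these changes, though both comparisons use the same control sums at 2 h and no relation is read between them. The 303 genes called higher had median levels of 21.7 CPM at 0 h, 22 CPM in control cultures at 2 h and 30.9 CPM with IL-15. The 90 genes called lower had medians of 25.3, 34 and 26.8 CPM. Culture alone changed far more genes in these 2 h than IL-15 did, with 4451 genes higher (24.5%) and 5172 lower (28.4%) than at 0 h (edgeR, adjusted p under 0.05).

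How the early changes went on was read in the cultures of later times, which share the animals but no library with those at 2 h. Of the 303 genes, 42.6% were called higher at 6 h, where 5.12% of all genes tested were. At 12 h the shares were 45.9% and 17.5%, at 24 h they were 51.2% and 20%, and at 48 h they were 52.1% and 20.2%. Their median log2 fold change was 0.24 at 6 h, 0.21 at 12 h and 0.26 at both 24 and 48 h. Of the 90 genes, 54.4% were called lower at 6 h, where 3.54% of all genes were. The shares at 12, 24 and 48 h were 62.2%, 57.8% and 56.7%, against 14%, 19% and 20% of all genes, and the 4 medians were -0.39, -0.40, -0.34 and -0.31. Calls at all times come from 1 fit, in which a gene has 1 dispersion. In the animals taken singly, the median of the 303 genes at 6 h lay between 0.18 in 38147 and 0.26 in 38155.

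**Figure D4:**
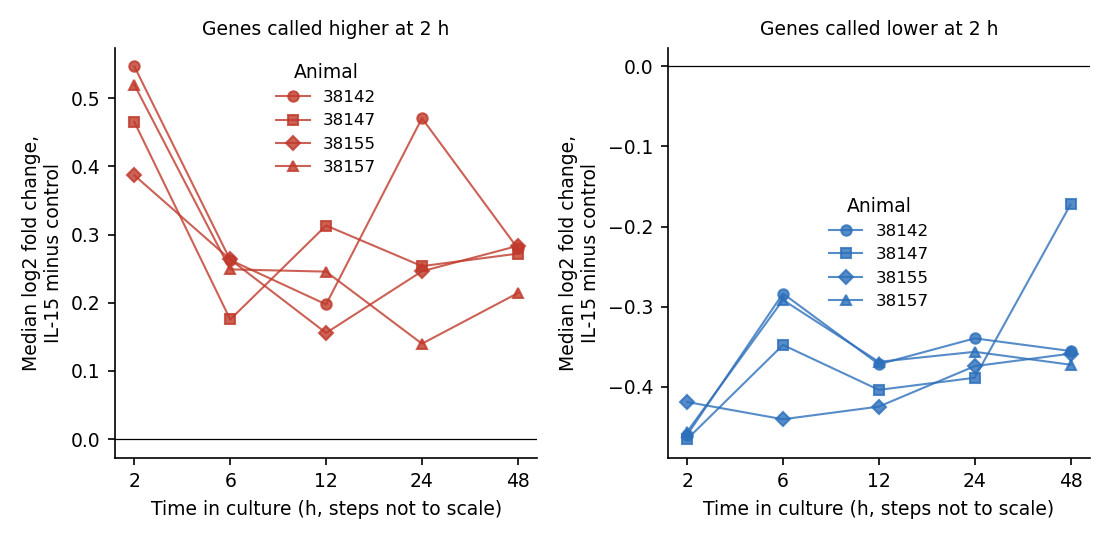
Median log2 fold change of IL-15 against control (vertical axes) at 2, 6, 12, 24 and 48 h (horizontal axes, steps not to scale) in each of 4 animals, for the 303 genes called higher (left, red) and the 90 called lower (right, blue) at 2 h. The left medians fall from 0.39 to 0.55 at 2 h, which chose the genes, to 0.18 to 0.26 at 6 h, and all stay above 0; the right medians all stay below 0.

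Size at 2 h went with the later calls more at 6 h than at 48 h. Of the 50 genes that rose by at least 1, 76% were called higher at 6 h and 56% at 48 h. Of all genes tested, 5.12% and 20.2% were. Their median log2 fold change went from 1.59 at 2 h to 1.35, 1.14, 1.00 and 0.66 at the later times. Of the 253 that rose by less, 36% were called higher at 6 h and 51.4% at 48 h. The median control level at 2 h was 1.32 CPM for the 50 genes and 25.8 CPM for the 253. No test compared these classes.

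Courses differed within the 303 genes. Those called higher at all 4 later times numbered 89, or 29.4% where 3.40% of all genes were, with a median of 0.77 at 2 h and of 0.92 at 6 h. Those called higher at 1 to 3 of those times made up 37.6% (25.9% of all genes), so that 67% were called higher at 1 or more of them (29.3%). The remaining 100 genes, 33% against 70.7% of all genes, were not called higher again, and their medians were 0.41 at 2 h and -0.00 at 6 h. Among the latter, 70 were called at no later time in either direction, 23.1% of the 303 against 41.8% of all genes. Their median level with IL-15 at 2 h was 36.5 CPM against 24.6 CPM in control, and at 6 h it was 48.2 against 48.5 CPM. Calls in the opposite direction at 1 or more later times were made for 33 of the 303 genes, or 10.9%, a smaller share than the 29.8% of all genes called lower at 1 or more later times. Genes called higher at 6 h but not at 48 h numbered 32, or 10.6% (1.49% of all genes). The 61 genes called at 48 h but not at 6 h were 20.1%, near the 16.6% of all genes.

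At all 4 later times 37 of the 90 genes, or 41.1%, were called lower (2.23% of all genes), with medians of -0.49 at 2 h and -0.73 at 12 h. At 6 h their median level was 34.8 CPM in control cultures and 20.4 CPM with IL-15. Another 28 were called lower at 1 to 3 later times, 31.1% against 27.5% of all genes. The other 25, or 27.8%, were not called lower again (70.2% of all genes). Called higher at 1 or more later times were 13 of the 90, or 14.4%, also a smaller share than the 29.3% of all genes.

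The numbers in these classes shrank with the calls when an animal was left out. Without 38142, 38147, 38155 and 38157 in turn, 36, 52, 59 and 51 genes were higher at 2 h and at all 4 later times, or 35.3%, 38.2%, 32.6% and 47.7% of those called at 2 h. Not called higher again were 31, 39, 61 and 21 genes, or 30.4%, 28.7%, 33.7% and 19.6%. Genes called lower at 2 h and at all 4 later times numbered 14, 15, 17 and 13. These were 77.8%, 46.9%, 53.1% and 52% of those called lower at 2 h, where 41.1% were with all 4 animals. Those not called lower again numbered 0, 8, 4 and 8, or 0%, 25%, 12.5% and 32%, where 27.8% were with all 4 animals. Without the library that stood apart, 83 and 71 genes were called higher at all or at none of the later times.

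The difference between the effects at 2 h and later was tested directly, and over all genes it was called for 1.62% at 6 h and for 14.6%, 19.8% and 21.9% at the 3 times after that. Of the 303 genes, 33 had a smaller effect at 6 h than at 2 h and 16 a greater one, where 0.720% of all genes moved down and 0.901% up between these times (edgeR test of the interaction, BH-adjusted p under 0.05). The 33 genes had medians of 0.40 at 2 h and -0.14 at 6 h. The 16 genes had medians of 1.01 at 2 h and 2.13 at 6 h, and 8 of them belong to the 50 that rose by at least 1. At 12 h the effect was smaller for 34.7% of the 303 genes and greater for 24 of them, where 5.57% of all genes moved down and 9.05% up. At 24 h it was smaller for 98 and greater for 22 (8.62% and 11.2%). At 48 h it was greater for 25, and for 35.3% of the 303 it was smaller (12% and 9.83% of all genes moved up and down). Choice of the genes by their effect at 2 h favours a smaller effect later, so these counts do not weigh one direction against the other. Of the 90 genes that fell, 7 had a smaller fall at 6 h and 1 a greater one. Without 38142, 38147, 38155 or 38157, 6, 12, 10 and 8 genes called higher had a smaller effect at 6 h and 7, 5, 8 and 7 a greater one. Genes called lower then had a smaller fall at 6 h in 0 cases throughout.

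Among the 4 IDs, the effect on ENSMFAG00000001455 grew to 4.57 ± 0.32 at 6 h (SE, log2), which was 2.13 ± 0.40 more than at 2 h (edgeR adjusted p = 0.0026). Its control level had gone down to 11.8 ± 3.20 CPM (SD, n = 4 animals) by then, and the level with IL-15 was 282 ± 62.5 CPM. For ENSMFAG00000031234 the effect at 6 h was 3.66 ± 0.26, greater by 1.43 ± 0.34 (adjusted p = 0.019), and at 48 h it was 2.30 ± 0.24, with a difference from 2 h of 0.07 ± 0.33 (adjusted p = 0.91). ENSMFAG00000036654 was lower at 6 h by 1.27 on the log2 scale, 25.3 ± 6.62 CPM with IL-15 against 61.3 ± 16.5 CPM in control. By 12 h its control level was 26 ± 5.45 CPM and the IL-15 level 25.9 ± 11.5 CPM, and the call was no longer made (log2 fold change -0.08 ± 0.29, adjusted p = 0.86). ENSMFAG00000064157 kept its effect, which was -0.97, -0.96, -0.90 and -0.75 on the log2 scale at the 4 later times, each called.

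Females and males were compared in their response at 2 h, with 2 animals of each sex. The edgeR interaction called 0 genes, with 293 at an unadjusted p under 0.05 (1.61% of those tested). Limma on the log2 fold changes of the 4 animals called 0 as well, with 724 at an unadjusted p under 0.05. Permuting 2 animals against 2 gives a smallest two-sided p of 0.333, and sex cannot be told apart from other differences between these animals.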

How the data were processed

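The authors deposited 2 tables of raw counts per gene for the same 132 libraries, with cynomolgus (38550 rows) or rhesus (35432 rows) gene IDs. Per the labels' protocols, RNA came from a Qiagen RNeasy Mini kit and messenger RNA libraries from a KAPA mRNA HyperPrep kit. No source used here gives the aligner, counter, genome build or annotation.

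The members and lists were chosen with earlier results of these data known. The cynomolgus counts of the 3 numbered libraries of each animal and group were summed. All 44 sums (11 groups) were fitted in edgeR 4.0.16 (R 4.3.3): TMM, filterByExpr, a term per animal, robust quasi-likelihood test, Benjamini-Hochberg adjustment over 18197 genes, threshold 0.05. CPM are TMM-scaled, and log2 values of single animals use a prior count of 2. For a gene with few counts, the fold change of 1 animal is thereby understated. Animals pair the samples, as the labels give the same 4 in each group; deviations of control and IL-15 sums of 1 animal at 2 h correlated at 0.88 to 0.961. No 2 sister libraries at 2 h agreed within sampling noise (lowest chi-square per degree of freedom 3.97 over 24 pairs). Counting without molecular identifiers understates the error.

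The rule for printed IDs took, among genes called at 2 h with at least 5 CPM in the higher group and 1 direction in 4 of 4 animals (256 higher, 78 lower), the 2 highest and 2 lowest log2 fold changes; the parts of the rule that need symbols could not be run. A library was taken to stand apart above the median sister distance plus 5 scaled median absolute deviations (limit 0.407; 3 in the series, 1 at 2 h). Alternatives were DESeq2 1.42.0, limma 3.58.1, other scalings, filters, blocks and left-out samples. Counts of 4000 genes were simulated for IL-15 against control at 2 h. Changes of 0.5, 1 and 2 on the log2 scale were given to 65, 66 and 65 genes. The fit recovered 50.8%, 86.4% and 98.5% of them, with 6.67% false among the calls. These rates describe the simulated counts only. The share of real changes found and the share of false calls in the real libraries were not measured.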

Additional observations from a re-analysis of the deposited data

Results flagged for a closer look

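Among 16 groups of 4 animals tested for the 4 printed IDs (levels at 0 h and in both 2 h groups, and the change at 2 h), 3 held an animal far from the other 3, where chance gives about 1 in 20, or 0.8. ENSMFAG00000001455 stood at 46.9 CPM in animal 38142 at 0 h. ENSMFAG00000036654 stood at 377 CPM in the control cultures of animal 38155 at 2 h. ENSMFAG00000064157 stood at 28.7 CPM in the control cultures of animal 38157 at 2 h.

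The IL-15 effect differed between 2 h and a later time (edgeR test of the difference, adjusted p under 0.05) for 295 genes at 6 h. The number was 2660 at 12 h, 3611 at 24 h and, after 48 h, 3978. For ENSMFAG00000001455 the later effect minus that at 2 h was 2.13 at 6 h, 2.40 at 12 h and 1.56 at 24 h on the log2 scale. For ENSMFAG00000031234 it was 1.43 at 6 h. For ENSMFAG00000036654, which fell at 2 h, it was 1.37 at 24 h and 1.32 at 48 h.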

How the results depend on the processing

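Shares are of the 18197 genes of the reported fit, in which 1.67% were higher and 0.495% lower at 2 h. They were 0.308% and 0.0275% without the animal term (no replicate block) and 2.76% and 1.21% with 1 replicate block per animal and time. The 8 sums at 2 h alone gave 5.28% and 4.59%, and with RLE 5.48% and 4.57%. DESeq2 called 0.896% lower. Libraries entered singly gave 7.95% and 7.57% with the library number as a replicate block, and 13.4% and 14.6% with the token as a term. In both of these fits the estimated correlation of libraries of 1 animal and treatment was below 0 (-0.0402 and -0.195). They therefore take single libraries as replicates and give them more weight than independent libraries would have. Leaving out 1 animal or 1 library number gave 0.561% to 1.75% higher and 0.0989% to 0.539% lower. Without Lib1 GL67, 0.291% were lower, and without Lib1 GL75, 0.879% were higher. Genes whose effect differed from that at 2 h numbered 70 to 110 at 6 h, 988 to 2239 at 12 h, 1615 to 2832 at 24 h and 1863 to 3398 at 48 h with 1 animal left out, and 716 at 6 h and 4062 at 12 h with the block per animal and time. Same-numbered libraries of an animal correlated with a median r of 0.118 (-0.392 to 0.658, with 7 of 12 above 0.1). Whether libraries of the same number share more than a label was not tested. ENSMFAG00000036654 was not called in 9 of 26 alternatives (adjusted p up to 0.371), and ENSMFAG00000064157 in 1. The other printed IDs were called in 26 of 26, and no sign changed. Below 1 CPM, a median standard error of 0.51 limits the calls. The token term and the 8 sums with RLE were chosen after the data were seen.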

Other observations

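Near-silent genes were few among the calls at 2 h. One gene called higher had 1 count over the 4 control sums and 18 over the 4 IL-15 sums, a ratio of 15.5 with a 95% exact counting interval of 2.44 to 644. Another had 2 and 20 counts, a ratio of 8.59 (2.09 to 75.8). One gene called lower had 17 counts over the 4 control sums and 0 over the 4 IL-15 sums. Set against a floor of 3 counts over the group, it was 6.59-fold lower with IL-15, a value that depends on the floor and is not a lower bound. These intervals cover counting error only.

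The table with rhesus gene IDs gave 304 genes higher and 90 lower at 2 h among 17044 tested, with medians of 0.46 and -0.47. Its genes could not be matched to those of the cynomolgus table, so the counts do not say whether they are the same genes.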
